A study of Mus musculus with 16 samples.

Results

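Mature olfactory sensory neurons are marked by a small set of genes, and 8 of them are described here: Omp, Rtp1, Rtp2, Ric8b, Pde4a, Umodl1, Faim2 and Slc17a6. They were chosen by gene symbol, with earlier results of these data known. Each was measured by 1 feature of the array, so that 8 of 19572 tested features, covering 19505 genes, are members. All 8 lay above the array background on all 16 arrays.

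Gene expression was measured in sorted cells of olfactory mucosa from male and female mice (strain C57BL/6, 7 to 12 weeks old) that carried the S100a5-tauGFP reporter, a fluorescent protein under control of S100a5, whose expression in sensory neurons follows their activity. All 24 mice spent 40 h alone in chambers of clean air, and from 26 h on they received, for 10 s every 20 min, either a mixture of undecanal and bourgeonal, which are odorous aldehydes, or filtered air as vehicle. Each of 8 pools of 3 mice, 4 per treatment, was dissociated and sorted into a GFP+ and a GFP- fraction, which gave 16 arrays in 4 groups of 4. The sort thus used a reporter of activity, and markers of immature neurons also differed between the fractions, as given below.

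The GFP status in the title of each sample is contradicted by its cell type characteristic, on all 16 arrays. Titles define the groups here, hence the names titled GFP- and titled GFP+. S100a5 itself was higher in titled GFP- by 1.15 ± 0.14 log2 units (SE, mean of both treatments, n = 8 pools, limma adjusted p = 7.76e-06), which goes against the titles. Should the characteristics hold, each difference below reads as fluorescent minus non-fluorescent cells. All 10 neutrophil and all 10 other leukocyte markers measured were lower in titled GFP-. Their mean log2 signal per array was 5.20 to 5.95 and 5.35 to 6.14 in titled GFP-, against 13.35 to 15.41 and 10.35 to 12.66 in titled GFP+. In titled GFP- all 10 neutrophil markers lay under background on every vehicle array, and 9 of 10 on every odor array. A list of 12 transduction and cilia genes of mature neurons is called the transduction genes below. Of these 12, 11 were above background on every array, in both fractions. All 6 markers of microvillar cells and 6 of 8 of sustentacular cells were lower in titled GFP- over both treatments. Of 7 measured basal cell markers 3 were lower and 1 higher, but 6 of the 7 lay under background on all 16 arrays. So did 1 microvillar and 1 sustentacular marker. All 5 activity-dependent genes, S100a5 included, were higher. The part of these other cells in the differences below was not tested, and in sorted bulk samples fewer cells of a type and less RNA per cell cannot be told apart.

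Each sensory neuron of the main olfactory epithelium expresses 1 odorant receptor gene, sends cilia into the mucus and an axon to the olfactory bulb. Receptor proteins leave the endoplasmic reticulum poorly by themselves, and RTP1 and RTP2, small membrane proteins, help them reach the cell surface. RIC8B binds G alpha olf, the G protein of odorant receptors, and assists its folding and nucleotide exchange. OMP, an abundant cytosolic protein found in mature neurons, is the standard marker of maturity. PDE4A is a cyclic AMP phosphodiesterase of the cell body, dendrite and axon, while the cilia use PDE1C. SLC17A6, also called VGLUT2, loads glutamate into the synaptic vesicles of the axon terminals. UMODL1, or olfactorin, is a secreted or surface protein with a zona pellucida domain, and FAIM2 is a neuronal membrane protein that inhibits Fas-mediated cell death.

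Neuron-specific genes of this epithelium often carry sites for Ebf factors near their start, so the promoters of the members were read for the core of that site, CCCNNGGG, which is the same on both strands. RefSeq promoter windows of assembly GRCm38.p6, 250 bases before to 50 after a start, were matched by symbol for 5 of 8 members, with 8 windows in all. Omp, Rtp1 and Faim2 had no entry. The core was found once in the window of Rtp2, once in that of Umodl1 and at 2 places in the second of 3 windows of Pde4a. It was not found in the other Pde4a windows, in the window of Ric8b or in either of the 2 windows of Slc17a6. Of all 32851 windows of this length, 13.7% hold it. The homeodomain core TAAT, searched on both strands, was in 58% of all windows and in 5 of the 8 windows here. CACGTG, the E-box, was in 7.15% of all windows and in none here. The upstream 250 bases are shown for the windows with the Ebf core, which is in capitals, and for the first window of Slc17a6, the member with a similar difference to Rtp2 and no core; each is written 5' to 3' on the strand of its gene.
Rtp2, chr16:23930795-23931044, minus strand: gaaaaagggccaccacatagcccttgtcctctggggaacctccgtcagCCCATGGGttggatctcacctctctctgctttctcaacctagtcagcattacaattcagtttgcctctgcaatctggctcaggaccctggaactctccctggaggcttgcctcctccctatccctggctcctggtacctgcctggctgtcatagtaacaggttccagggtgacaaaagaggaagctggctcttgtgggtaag
Umodl1, chr17:30954433-30954682, plus strand: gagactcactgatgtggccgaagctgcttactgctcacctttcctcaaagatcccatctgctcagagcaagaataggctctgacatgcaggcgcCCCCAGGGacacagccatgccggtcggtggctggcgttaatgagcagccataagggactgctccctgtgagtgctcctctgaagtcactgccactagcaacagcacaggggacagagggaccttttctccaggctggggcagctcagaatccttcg
Pde4a, chr9:21183851-21184100, plus strand: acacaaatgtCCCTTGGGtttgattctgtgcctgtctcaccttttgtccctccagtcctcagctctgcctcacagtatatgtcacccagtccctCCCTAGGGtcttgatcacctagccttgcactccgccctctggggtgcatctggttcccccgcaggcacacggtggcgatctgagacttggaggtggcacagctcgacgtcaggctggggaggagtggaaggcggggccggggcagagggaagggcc
Slc17a6, chr7:51621580-51621829, plus strand: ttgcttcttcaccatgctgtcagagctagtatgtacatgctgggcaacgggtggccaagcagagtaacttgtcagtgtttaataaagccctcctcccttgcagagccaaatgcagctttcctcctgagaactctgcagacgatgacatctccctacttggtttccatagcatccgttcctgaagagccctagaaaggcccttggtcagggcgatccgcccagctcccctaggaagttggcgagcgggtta

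Of the 8 members, 6 were called higher in titled GFP- over both treatments on the deposited scale. With arrays centred on receptors or on transduction genes 0 were called, and the median of the members was -0.12 and -0.03. The median over all features was -0.22 and -0.13 there. The share of all features called on those scales is not given here, so the loss of calls is not shown to be particular to the members. The fitted difference, titled GFP- minus titled GFP+ averaged over both treatments, ran from 0.12 for Omp to 0.37 for Rtp2 and Slc17a6, or 1.08-fold to 1.29-fold if the deposited values are log2 as their range implies. By limma with Benjamini-Hochberg adjustment over all features, the 6 that passed at 0.05 on the deposited scale were Rtp2, Ric8b, Pde4a, Umodl1, Faim2 and Slc17a6. Over all features tested, 35.6% passed in this comparison and 21.9% passed upward, and 19.3% of the 405 features at least as bright as the dimmest member. The median difference of the members was 0.24, beside 0.15 over all features. Omp and Rtp1 did not pass, at adjusted p of 0.202 and 0.183. With the pool as a block, since both fractions of a pool come from the same mice, all 6 calls held, at adjusted p from 0.00698 to 0.0451. Without vehicle replicate 1 there were 3 calls instead of 6, with Ric8b, Umodl1 and Faim2 lost.

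**Figure D1:**
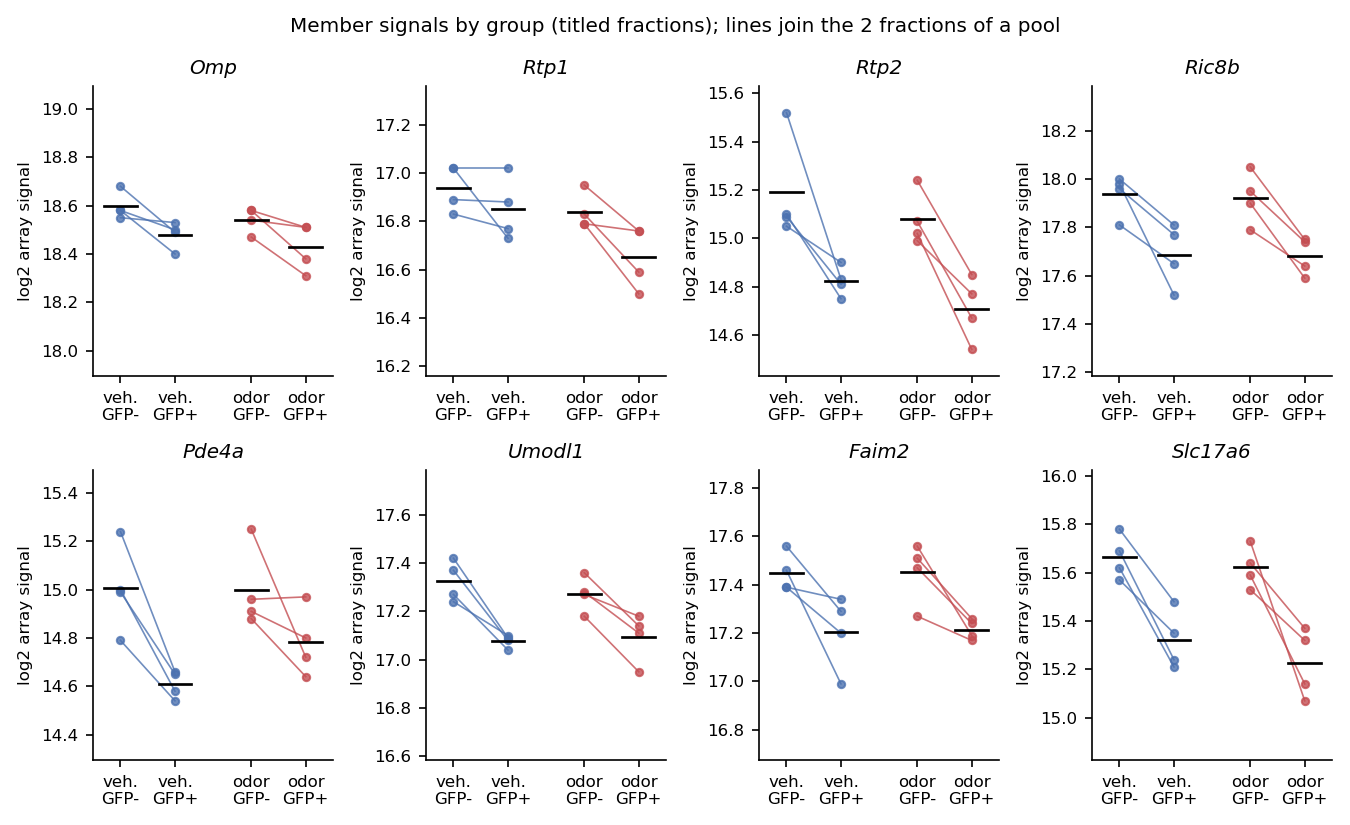
Log2 array signal (y axis, 1.2 log2 units in every panel) of each member on all 16 arrays by treatment and titled fraction (x axis). Thin lines join both fractions of a pool and black bars are group means of 4 arrays; most lines fall from titled GFP- to titled GFP+ by less than 0.5.

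The chaperones of the receptor are given with their values, and they were not tested against each other. Rtp2 read 15.52, 15.09, 15.10 and 15.05 in titled GFP- of vehicle replicates 1 to 4, and 14.83, 14.81, 14.75 and 14.90 in their titled GFP+. With odor it read 15.02, 15.24, 15.07 and 14.99 in titled GFP- and 14.54, 14.85, 14.67 and 14.77 in titled GFP+. Every titled GFP- array thus lay above every titled GFP+ array, which held for 3.71% of all features. The difference was 0.37 ± 0.13 in vehicle pools (SE, adjusted p = 0.0563) and 0.37 ± 0.13 in odor pools (adjusted p = 0.0449, or 0.0507 when pools were blocked), by limma. Averaged over both it was 0.37 ± 0.09 (adjusted p = 0.0045). It was higher in titled GFP- in 8 of 8 pools, with 0.69 in vehicle replicate 1 and 0.15 in vehicle replicate 4 as the extremes.

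Rtp1, the other receptor chaperone of the pair, showed less separation. It read 17.02, 16.83, 16.89 and 17.02 in titled GFP- of vehicle replicates 1 to 4 and 16.73, 16.77, 16.88 and 17.02 in titled GFP+. With odor the values were 16.79, 16.79, 16.95 and 16.83 against 16.50, 16.76, 16.76 and 16.59. The vehicle groups overlapped, and vehicle replicate 4 had the same rounded value in both fractions, while the odor groups did not overlap. The differences were 0.09 ± 0.11 in vehicle pools (adjusted p = 0.615) and 0.19 ± 0.11 in odor pools (adjusted p = 0.252), and the test of the difference between them gave 0.10 ± 0.16 (adjusted p = 1). Rtp1 was the member whose group means did not order by fraction: its titled GFP+ vehicle mean of 16.85 ± 0.13 (SD, n = 4) was next to the titled GFP- odor mean of 16.84 ± 0.08, within the spread of either.

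Ric8b, the partner of G alpha olf, read 17.98, 17.96, 17.81 and 18.00 in titled GFP- of vehicle replicates 1 to 4 and 17.52, 17.77, 17.65 and 17.81 in titled GFP+. With odor it read 17.90, 17.95, 17.79 and 18.05 against 17.59, 17.74, 17.64 and 17.75. Titled GFP- was the higher fraction in 8 of 8 pools, by 0.15 to 0.46, although the lowest titled GFP- vehicle value equalled the highest titled GFP+ one to 2 decimals. The difference was 0.25 ± 0.11 in each treatment (adjusted p = 0.134 with vehicle and 0.121 with odor). Averaged over both treatments it was 0.25 ± 0.08 (limma adjusted p = 0.0211, or 0.0779 without vehicle replicate 1).

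The maturity marker Omp had the smallest difference. It read 18.68, 18.58, 18.55 and 18.58 in titled GFP- of vehicle replicates 1 to 4 and 18.49, 18.50, 18.53 and 18.40 in titled GFP+. In odor pools it read 18.47, 18.58, 18.54 and 18.58 against 18.31, 18.51, 18.51 and 18.38. The vehicle groups did not overlap and the odor groups did. The highest tested signal of an array was 19.06 to 19.30, so that Omp lies near the top of the scale. Genes of the transduction list near the top, named here after their values were seen, differed by 0.05 (Gnal), 0.02 (Gnb1), 0.00 (Gfy) and -0.01 (Stoml3). Some bright genes with group means of 16.83 to 17.94 differed more and were called, with 0.25 for Ric8b, 0.27 for Adcy3 and 0.40 for Ano2. In the same range Cnga4 and Syp, at 0.16 and 0.18, did not pass (limma adjusted p = 0.0907 and 0.0685). The part of signal strength in these values was not tested. Omp was higher in titled GFP- in 8 of 8 pools, by 0.02 to 0.21, and an exact two-sided permutation test by sign flips of the 8 pool differences gave p = 0.00781, the smallest it can give. The fit over all features did not call it (0.12 ± 0.07, adjusted p = 0.202), but did where the spread was estimated as a trend of signal (adjusted p = 0.0282).

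The exact permutation test by sign flips gave the same p for Rtp2, Ric8b, Umodl1, Faim2 and Slc17a6 as for Omp, and p = 0.0156 for Rtp1 and Pde4a, which were higher in 7 of 8 pools. These 8 exact permutation tests are unadjusted and treat the pools as the only source of spread. Of the members 6 of 8 were higher in titled GFP- in every pool, as were 15.9% of all features.

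**Figure D2:**
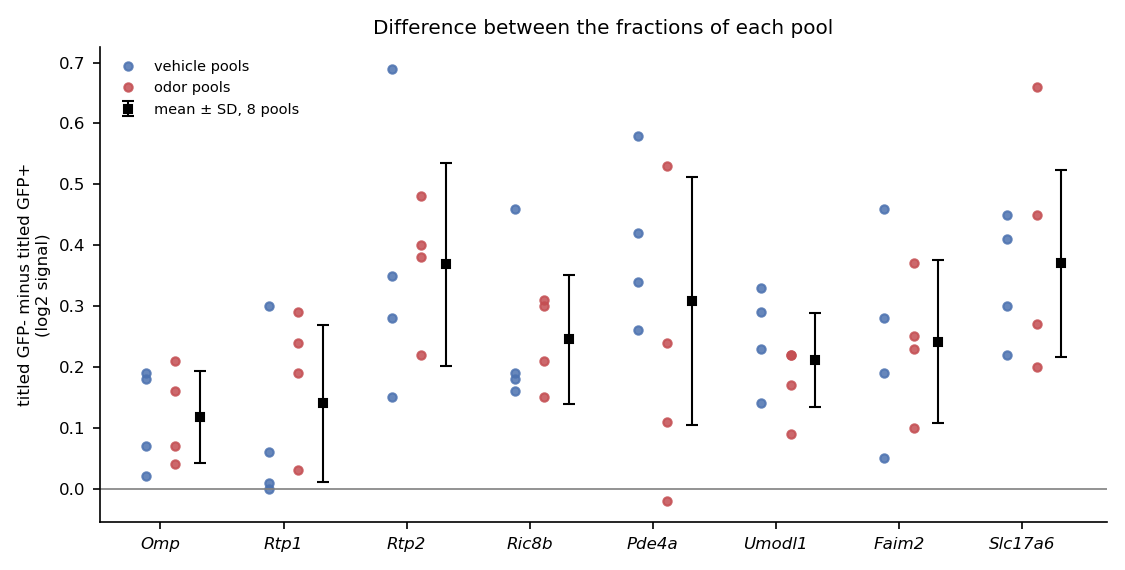
Difference between the fractions of each pool (y axis, titled GFP- minus titled GFP+, log2 signal) for each member (x axis), with vehicle pools in blue, odor pools in red and squares for the mean ± SD over 8 pools. All but 2 points, 1 of Rtp1 and 1 of Pde4a, lie above 0, and Omp and Rtp1 have the lowest means, 0.12 and 0.14.

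Slc17a6, the vesicular glutamate transporter, had the largest averaged difference among the genes of the cell body, axon and surface. It read 15.62, 15.57, 15.69 and 15.78 in titled GFP- of vehicle replicates 1 to 4 and 15.21, 15.35, 15.24 and 15.48 in titled GFP+. With odor it read 15.59, 15.73, 15.53 and 15.64 against 15.14, 15.07, 15.32 and 15.37. No titled GFP+ array reached any titled GFP- array. The difference was 0.34 ± 0.11 in vehicle pools (adjusted p = 0.0489, or 0.0715 when pools were blocked) and 0.40 ± 0.11 in odor pools (adjusted p = 0.0199), by limma. Averaged over both it was 0.37 ± 0.08 (adjusted p = 0.00213), and it passed in all 8 fits that left out 1 pool, as did Rtp2.

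Pde4a varied most between pools, with an SD of 0.21 over the 8 pool differences. It read 15.24, 15.00, 14.99 and 14.79 in titled GFP- of vehicle replicates 1 to 4 and 14.66, 14.58, 14.65 and 14.54 in titled GFP+. With odor the values were 14.96, 15.25, 14.88 and 14.91 against 14.97, 14.72, 14.64 and 14.80. The vehicle groups were apart, while odor replicate 1 had a slightly higher value in titled GFP+ and the odor groups overlapped. The difference was 0.40 ± 0.13 in vehicle pools (adjusted p = 0.0415, or 0.0519 when pools were blocked) and 0.21 ± 0.13 in odor pools (adjusted p = 0.243). The difference between these, -0.19 ± 0.18, did not pass (adjusted p = 1), so the treatments are not shown to differ. Averaged over both, Pde4a was higher by 0.31 ± 0.09 (adjusted p = 0.0152), a call lost without odor replicate 2 (adjusted p = 0.0539).

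Umodl1 read 17.42, 17.37, 17.24 and 17.27 in titled GFP- of vehicle replicates 1 to 4 and 17.09, 17.08, 17.10 and 17.04 in titled GFP+, with odor values of 17.28, 17.27, 17.36 and 17.18 against 17.11, 17.18, 17.14 and 16.95. Its titled GFP+ vehicle group had an SD of 0.03 (n = 4), the smallest of any group of a member. Faim2 read 17.46, 17.56, 17.39 and 17.39 against 16.99, 17.29, 17.20 and 17.34 with vehicle, and 17.27, 17.56, 17.47 and 17.51 against 17.17, 17.19, 17.24 and 17.26 with odor. The fractions of Faim2 did not overlap in either treatment. Those of Umodl1 did not overlap with vehicle and met at 17.18 with odor. Averaged over both treatments the differences were 0.21 ± 0.07 for Umodl1 (adjusted p = 0.031) and 0.24 ± 0.08 for Faim2 (adjusted p = 0.0278). These calls held in 1 and 2 of the 8 fits that left out 1 pool (adjusted p up to 0.0863 and 0.0899). Both were lost with quantile normalization, at 0.14 for Umodl1 (adjusted p = 0.12) and 0.16 for Faim2 (adjusted p = 0.0984).

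Within 1 treatment few members passed. In vehicle pools 2 of 8 were called higher, Pde4a and Slc17a6, and in odor pools 2 of 8, Rtp2 and Slc17a6, and none lower. Of all features 16.9% were called in vehicle pools, 7.05% higher and 9.82% lower, and in odor pools 22.2% were called, 12.2% higher and 9.98% lower. Groups did not overlap, with titled GFP- above, for 7 of 8 members in vehicle pools and 5 of 8 in odor pools, against 12.3% and 14.2% of all features. With the pool as a block the counts were 0 and 1. No vehicle call held without any 1 vehicle replicate, and the odor calls fell to 0 without odor replicate 1 or 2. With the spread estimated as a trend of signal the counts rose to 6 and 4. The shares of all features called under these other settings are not given here, so these counts are not shown to be particular to the members.

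The sign of the differences and the number of calls depended on the scale between arrays, and no negative averaged difference passed. The median over all features was 0.15 as deposited and moved to 0.50 where each array was centred on its tested-feature median, where all 8 members passed at 0.47 to 0.72, as did 82.9% of all features in either direction. The tested-feature median of an array was 6.76 to 7.32, so that this scale sets arrays equal near the background of 6.87 to 7.41. With quantile normalization the median difference over all features was 0.14. There 4 of 8 members passed beside 40.3% of all features, with Umodl1 and Faim2 lost. The median difference moved to -0.22 where each array was centred on its median over 1091 olfactory receptor features. The receptor median of an array was 7.93 to 9.46, lowest in titled GFP+ of odor replicate 1. It lay above the background used here, but on every array under the 95th percentile of that array's negative controls, 9.14 to 10.88. On the receptor scale no member passed by limma, and 6 of 8 had negative values. These were led by Omp at -0.25 ± 0.17 and Rtp1 at -0.23 ± 0.16, while Rtp2 and Slc17a6 were both at 0.00. The SE of Omp was 0.07 as deposited.

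**Figure D3:**
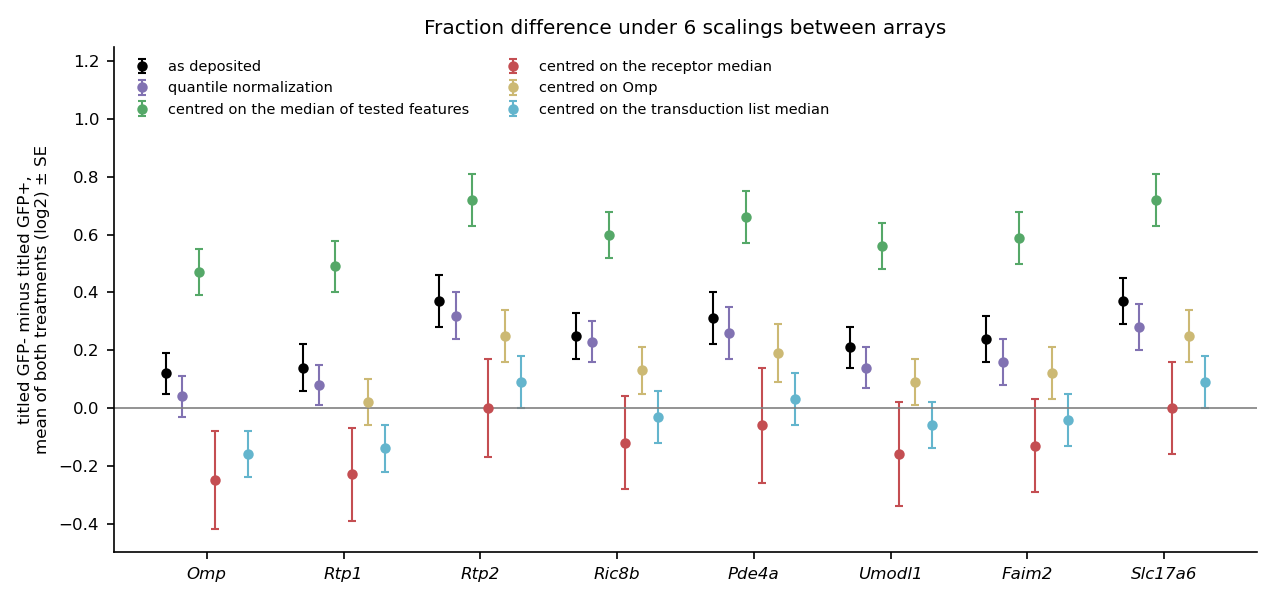
Fraction difference averaged over both treatments (y axis, titled GFP- minus titled GFP+, log2, ± SE of the limma fit) of each member (x axis) under 6 scalings between arrays. Values are positive as deposited, with quantile normalization and with the tested-feature median set equal, and 6 of 8 are negative with the receptor median set equal.

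Centring on genes of the same neurons left smaller differences. With each array centred on Omp, 1 of the 7 other members passed, Rtp2 at 0.25 ± 0.09 (adjusted p = 0.0417), beside Slc17a6 at 0.25 ± 0.09 (adjusted p = 0.0535), Pde4a at 0.19 ± 0.10 and Rtp1 at 0.02 ± 0.08. With arrays centred on the median of 12 transduction genes none of the 8 passed by limma, and the values ran from -0.16 for Omp to 0.09 for Rtp2 and Slc17a6. The median over all features was -0.13 there, and 0.03 with arrays centred on Omp. Shares of all features called on these scales are not given here. By sign flips over the 8 pools, unadjusted exact permutation tests passed at 0.05 for 4 members relative to Omp, 3 relative to the transduction genes, 2 relative to the receptors and 6 with quantile normalization, against 8 as deposited.

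No member differed detectably between odor and vehicle. In titled GFP- the differences of odor minus vehicle ran from -0.11 for Rtp2 to 0.00 for Faim2, and in titled GFP+ from -0.20 for Rtp1 to 0.17 for Pde4a. By limma 0 of 8 members passed in either fraction, and 0 of 8 had an unadjusted p under 0.05; the lowest was 0.1, for Rtp1 in titled GFP+ (adjusted p = 0.58). Over all features 0% passed in each, with 805 and 2016 of 19572 at an unadjusted p under 0.05. The 95% intervals of all members lay between -0.38 and 0.26 in titled GFP- and between -0.44 and 0.45 in titled GFP+. With the replicate number as a block, which pairs odor and vehicle pools of 1 number, no member passed either. The effect of odor on the fraction difference was between -0.19 and 0.10 for the 8 members, and 0 of 8 passed (0% of all features, with 739 at an unadjusted p under 0.05 and 0 members).

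**Figure D4:**
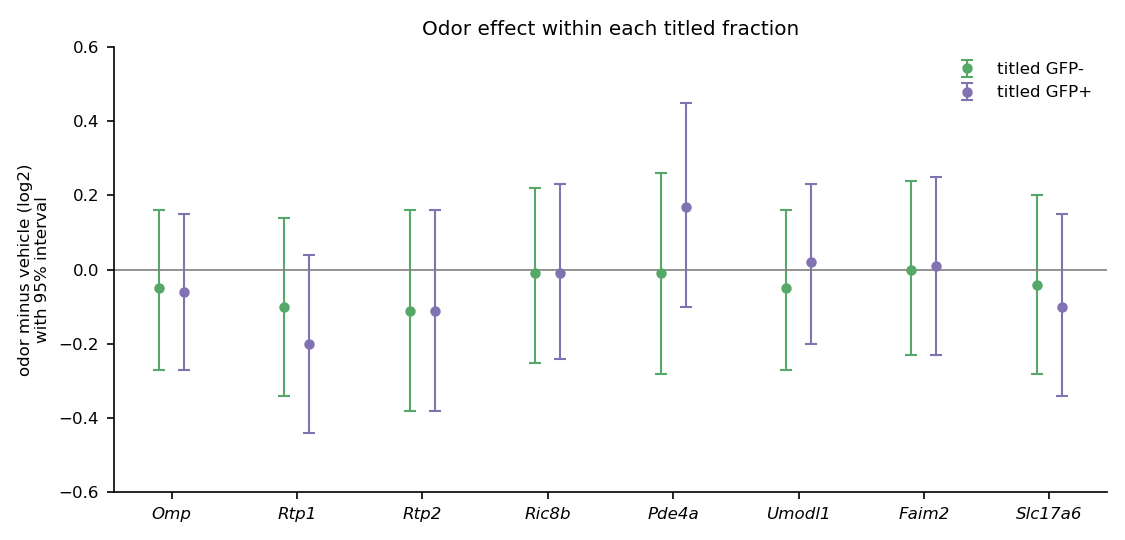
Odor minus vehicle (y axis, log2, with the 95% interval of the limma fit) of each member (x axis) in titled GFP- (green) and titled GFP+ (purple). Every interval includes 0; the largest values are -0.20 for Rtp1 and 0.17 for Pde4a, both in titled GFP+.

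The nearest relatives of the chaperones were lower or did not pass. Of 11 relatives of the chaperones (RTP and REEP proteins, Ric8a and the G alpha genes Gnal and Gnas) 0 were higher and 4 lower in titled GFP- over both treatments, while 13.7% of all features were called lower, with a list median of 0.04 (1 was higher after quantile normalization, and 7 with the tested-feature median set equal). Gnal, which encodes G alpha olf, the client of RIC8B, differed by 0.05 ± 0.08 (adjusted p = 0.629), and Ric8a, the paralog that serves other G alpha subunits, by 0.04 ± 0.11 (adjusted p = 0.799). Gnas, which encodes G alpha s, was at least 14.8-fold higher in titled GFP+ of vehicle pools (adjusted p = 3.46e-08), with titled GFP- under background on all 4 arrays. Reep5 and Reep4, endoplasmic reticulum shaping proteins, were at least 1.19-fold and 1.35-fold higher there (adjusted p = 1.22e-06 and 0.00193), Reep4 being above background on 3 of the 4 titled GFP+ arrays. Reep3 differed by -0.49 ± 0.13 over both treatments (adjusted p = 0.00958). These 4 genes had the direction of the leukocyte, microvillar and most sustentacular markers given above, whose part was not tested. Reep6 and Reep1, above background on all 16 arrays, differed by 0.44 ± 0.17 and 0.17 ± 0.09 (adjusted p = 0.0521 and 0.154), and Rtp3 and Rtp4 lay under background on all 16 arrays.

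Of 10 measured paralogs of the other members 1 was higher and 2 lower over both treatments, with a median of 0.03. Pde4b, a phosphodiesterase also abundant in leukocytes, was at least 1.17-fold higher in titled GFP+ of vehicle pools, where 3 of 4 arrays were above background (adjusted p = 0.000276). Pde4c lay under background on all arrays, and Pde4d was not among the measured paralogs. Pde4a and Pde4b are thus the PDE4 genes with signal among those measured here. Faim, a cell death inhibitor that shares its name but not its structure with Faim2, was higher in titled GFP- by 0.47 ± 0.13 (adjusted p = 0.00865), and Tmbim6, a relative of Faim2 in the endoplasmic reticulum, differed by 0.09 ± 0.10 (adjusted p = 0.492). The other vesicular glutamate transporters, Slc17a7 and Slc17a8, lay under background on all 16 arrays, which leaves Slc17a6 as the one of the 3 with signal. Tmbim1 was the other gene called lower and lay under background on all arrays as well.

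Of 12 transduction genes 6 were higher and 0 lower over both treatments, with a median of 0.18, led by Pde1c, the ciliary phosphodiesterase, at 0.64 ± 0.07 (adjusted p = 3.24e-06), Ano2, the ciliary chloride channel, at 0.40 ± 0.07 (adjusted p = 0.000517) and Gng13, a G gamma subunit, at 0.38 ± 0.13 (adjusted p = 0.0365). Of 11 measured genes of presynaptic release 5 were higher and 0 lower, with a median of 0.28. Syn2 and Syn1, synapsins that tether vesicles, led at 0.80 ± 0.11 and 0.54 ± 0.12 (adjusted p = 3.52e-05 and 0.00253), with Snap25 at 0.36 ± 0.11 (adjusted p = 0.0233), beside the 0.37 of Slc17a6. With arrays centred on the receptor median 0 of the transduction and 1 of the presynaptic genes passed upward. Of 9 immature neuron markers 5 were lower and 0 higher, with a median of -0.56, and 2 of the 9 had positive differences that did not pass. Gap43, a growth cone protein, differed by -2.69 ± 0.22 (adjusted p = 5.51e-08), and Gng8, a G gamma subunit of immature neurons, was at least 13.6-fold higher in titled GFP+ of vehicle pools (adjusted p = 3.68e-10). With the tested-feature median set equal, 2 immature markers were higher and 4 lower.

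**Figure D5:**
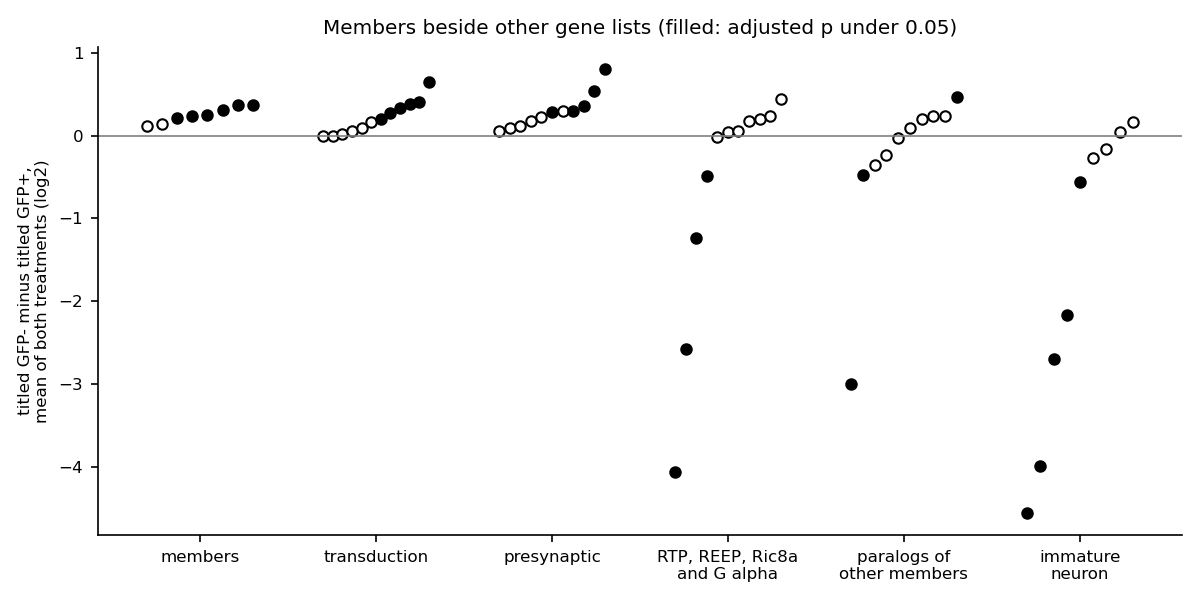
Fraction difference averaged over both treatments (y axis, titled GFP- minus titled GFP+, log2 as deposited) of every measured gene in 6 lists (x axis); filled points passed limma at an adjusted p under 0.05. Members, transduction and presynaptic genes have 6, 6 and 5 genes called higher and 0 lower, while the chaperone relatives and immature markers have 4 and 5 called lower; genes under background are included at their measured values.

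The members varied together across the 16 arrays to different degrees. The correlation of a pair ran from 0.03 for Rtp1 with Pde4a to 0.86 for Ric8b with Faim2, with a median of 0.62 over 28 pairs. After the group means were removed the median was 0.23, with 7 pairs below 0, and the lowest was -0.65 for Umodl1 with Slc17a6. Both fractions of a pool share their mice and all features of an array share its scale, and these correlations are given as a description. The features most like each member over the 16 arrays had correlations of 0.90 to 0.96. For Ric8b they were Dner, Olfr979 and Olfr635, for Umodl1 the receptors Olfr362, Olfr893 and Olfr203, and for Rtp2 Saxo2, Gnpnat1 and Asrgl1. Slc17a6 was most like Ckmt1, Bpnt1 and Slc25a33, Faim2 most like Nmnat2, Ppargc1a and Trpc1, and Pde4a most like Pygo1, Kcna6 and Ptchd1. Omp was nearest to Dph6, Plpp5 and Rad51d, and Rtp1 to Tma16, Grhpr and Twsg1.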

How the data were processed

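The deposited values were 16 columns of log2 array signal from Clariom S arrays, 1-colour Affymetrix arrays, made by the authors with Affymetrix Expression Console per the submitters' processing notes. The log2 unit was read from the range of the values, 1.77 to 19.30. Background correction, normalization and summarization are not given in the sources used here. Per the labels' protocols, cRNA came from 50 to 100 ng of total RNA. Of 28846 entries per array, 19572 carried 1 gene symbol in the platform annotation and were tested.

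The 4 groups of 4 arrays, taken from the titles, were fitted with limma 3.58.1 (R 4.3.3) in a cell-means model on the log2 values as deposited, with two-sided moderated statistics and p-values adjusted by Benjamini-Hochberg across the 19572 features (threshold 0.05). There were 6 comparisons, namely titled GFP- minus titled GFP+ with vehicle, with odor and averaged, the interaction, and odor minus vehicle in each titled fraction. SE and 95% intervals come from that fit. The number of arrays limits the precision. Background on an array was the 95th percentile of its 23 probe sets graded by GC content, 6.87 to 7.41. Where all arrays of the dimmer group lay under it, a fold is given as "at least", the brighter mean over the mean of, per array, the higher of background and own value.

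Replicates were pools of different mice. Fractions of a pool share their mice, and their deviations from the group means correlated at 0.10 to 0.34. Odor and vehicle arrays of 1 number correlated at 0.15 to 0.55, all 8 pairs over 0.1. The block was the pool in fraction comparisons and the interaction, and the replicate number in odor minus vehicle. The code was tested on simulated data. Members, gene lists and tests were chosen with earlier results of these data known; named genes were all members, their relatives, up to 3 called genes at each end of other lists and the 3 features most like each member. Alternatives were other scalings, filters on dim features, an intensity trend, blocks and leaving out each pool; centring on Omp or on transduction genes and the filter at the GC-graded background were added after seeing the data.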

Additional observations from a re-analysis of the deposited data

Results flagged for a closer look

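Of 32 groups of 4 arrays examined (8 members in 4 groups), 1 held an array that stood apart from the rest by Dixon's test at 95%: Rtp2 read 15.52 in titled GFP- of vehicle replicate 1, with the next of the group at 15.10, a gap of 0.9 of the group's range. Chance gives such a gap in about 1 in 20 groups. Without that pool the Rtp2 difference in vehicle pools was 0.26 (limma adjusted p = 0.263) and the average over both treatments 0.32, which still passed. No member had an interaction past the threshold.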

How the results depend on the processing

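No member changed sign in the averaged fraction difference with quantile normalization, the filters on dim features, the intensity trend, the replicate block or any 1 pool left out. Centring on receptors or transduction genes changed the sign of several, and none of these negative values passed. Members called in the vehicle, odor and averaged fraction differences numbered 2, 2 and 6. They were 0, 0 and 1 centred on Omp, and 0, 0 and 0 centred on the receptor median or on the transduction genes. Centred on the tested-feature median, which lies near background, they were 8, 8 and 8, where 71.5%, 57.2% and 82.9% of all features were called. Quantile normalization left 0, 0 and 4, beside 23%, 25% and 40.3% of all features. The intensity trend gave 6, 4 and 7, and the replicate block, in which the pool pairs the fractions, 0, 1 and 6; it changed no other call of a member. The filter on dim features at the negative controls gave 4 in vehicle pools. Leaving out 1 pool gave 0 to 2, 0 to 2 and 3 to 5. Where no share of all features is given, a count is not set apart from a change over all features. Members passing sign flips numbered 8 as deposited, 4 centred on Omp, 2 on the receptors, 3 on the transduction genes and 8 on the tested-feature median, and 6 under quantile normalization. The following values changed sign; apart from the scaling itself, the cause was not tested. Centred on the receptor median, the averaged fraction difference was -0.13 for Faim2, -0.25 for Omp, -0.06 for Pde4a, -0.12 for Ric8b, -0.23 for Rtp1 and -0.16 for Umodl1. The odor fraction difference was -0.23 for Faim2, -0.34 for Omp, -0.25 for Pde4a, -0.22 for Ric8b, -0.28 for Rtp1, -0.09 for Rtp2, -0.07 for Slc17a6 and -0.29 for Umodl1 on that scale. The vehicle fraction difference was -0.03 for Faim2, -0.16 for Omp, -0.02 for Ric8b, -0.18 for Rtp1 and -0.03 for Umodl1 on that scale. The interaction was -0.19 for Omp, -0.09 for Rtp1, -0.19 for Rtp2 and -0.14 for Slc17a6 on that scale. Odor minus vehicle in titled GFP- was 0.02 for Omp, 0.06 for Pde4a, 0.06 for Ric8b, 0.03 for Slc17a6 and 0.02 for Umodl1 on that scale. Odor minus vehicle in titled GFP+ was 0.20 for Omp, 0.25 for Ric8b, 0.06 for Rtp1, 0.15 for Rtp2 and 0.16 for Slc17a6 on that scale. Centred on the transduction genes, the averaged fraction difference was -0.04 for Faim2, -0.16 for Omp, -0.03 for Ric8b, -0.14 for Rtp1 and -0.06 for Umodl1. The odor fraction difference was -0.05 for Faim2, -0.17 for Omp, -0.07 for Pde4a, -0.04 for Ric8b, -0.10 for Rtp1 and -0.11 for Umodl1 on that scale. The vehicle fraction difference was -0.03 for Faim2, -0.15 for Omp, -0.02 for Ric8b, -0.18 for Rtp1 and -0.02 for Umodl1 on that scale. The interaction was -0.01 for Omp and -0.01 for Rtp2 on that scale. Odor minus vehicle in titled GFP- was 0.02 for Omp, 0.06 for Pde4a, 0.06 for Ric8b, 0.03 for Slc17a6 and 0.02 for Umodl1 on that scale. Odor minus vehicle in titled GFP+ was 0.03 for Omp and 0.08 for Ric8b on that scale. Centred on the tested-feature median, the interaction was -0.10 for Omp, -0.01 for Rtp1, -0.10 for Rtp2 and -0.05 for Slc17a6. Odor minus vehicle in titled GFP+ was 0.05 for Omp, 0.10 for Ric8b and 0.01 for Slc17a6 on that scale. Under quantile normalization, odor minus vehicle in titled GFP- was 0.00 for Omp and 0.01 for Pde4a. The interaction was 0.00 for Ric8b and -0.01 for Rtp2 on that scale. Centred on Omp, odor minus vehicle in titled GFP- was 0.04 for Pde4a, 0.04 for Ric8b, 0.01 for Slc17a6 and 0.00 for Umodl1. Odor minus vehicle in titled GFP+ was 0.05 for Ric8b on that scale. The vehicle fraction difference was -0.02 for Rtp1 on that scale. The interaction was 0.00 for Rtp2 on that scale. With 1 pool left out, the interaction ranged from -0.07 to 0.07 for Faim2, -0.03 to 0.03 for Omp, -0.03 to 0.07 for Ric8b, -0.07 to 0.11 for Rtp2 and -0.03 to 0.12 for Slc17a6. With 1 pool left out, odor minus vehicle in titled GFP+ ranged from -0.06 to 0.06 for Faim2, -0.06 to 0.03 for Ric8b and -0.01 to 0.07 for Umodl1. With 1 pool left out, odor minus vehicle in titled GFP- ranged from -0.03 to 0.07 for Faim2, -0.09 to 0.07 for Pde4a, -0.05 to 0.03 for Ric8b and -0.16 to 0.00 for Rtp2. All members lay above background on all 16 arrays.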
